A study of Mus musculus with 4 samples.

Results

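The mouse genome holds a small class of protein-coding genes that span more than 500 kb, and their nascent transcription was compared here between Supt3 KO and Supt3 WT embryonic stem (ES) cells. Members were the genes of the deposited table with a protein-coding biotype and a distance from start to end above 500 kb, outside chromosomes X and Y, chromosome 14 from 63.5 Mb onward and chromosome 17 from 71.9 Mb onward. This rule is written in biotype, position and length, and gave 211 genes of 21978 protein-coding genes and 54146 genes in all. It was set with earlier results of these data known. In the left-out part of chromosome 14, 48.3% of tested genes were called higher in KO. In the left-out part of chromosome 17, 67.0% were called lower. The 2 KO and 2 WT libraries were made by TT-seq, in which cells take up 4-thiouridine (4sU) for a short time and the labelled, newly made RNA is purified and sequenced. All cells were grown in LIF and serum, and fission yeast (S. pombe) RNA carrying the same label was added to every sample as a spike-in. The labels give no strain, clone, passage, form of the mutation or replicate number, so the libraries of each genotype are numbered in accession order. The Supt3 protein belongs to the core of SAGA, a coactivator complex that modifies chromatin and helps to bring RNA polymerase II to promoters.

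Very long genes are mostly intron. RNA polymerase II needs many hours to cross the longest of them, and its passage depends on elongation kinases, splicing factors and topoisomerases that relieve the twisting of the template. Many such genes act at nerve cell contacts, as adhesion proteins, ion channels, guidance receptors and synaptic scaffolds. Many lie at common fragile sites, regions that break when replication is slowed.

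Libraries held 13.1 and 18.4 M mouse counts (M, 1e6 counts) in KO, against 13.5 and 19.4 M in WT, and counting error was smaller than the spread between libraries. Supt3 itself (chr17:44777152-45119290, mm10) had 123 and 139.6 CPM in KO libraries, against 147 and 158 CPM in WT libraries (CPM, counts per 1e6 counts of a library, scaled by edgeR's TMM factor), and did not pass the test at a log2 fold change of -0.22 ± 0.10 (SE; edgeR, adjusted p = 0.232). The labels do not say which bases of Supt3 were changed, so reads over the whole gene may not test the label. ES cell markers summed to 1685 and 1892 CPM in KO libraries, against 2285 and 2304 CPM in WT libraries, and Sox2, which lies inside another gene on the same strand, is listed at 0 in all 4. Of the 9 ES cell markers tested, 0 were called higher and 1 lower, at a median log2 fold change of -0.06. Neuron markers summed to 311 and 366 CPM in KO libraries, against 328 and 348 CPM in WT libraries. Of 10, 8 were tested, with 1 called higher and 0 lower, and Tubb3, also inside another gene on its strand, is listed at 0. Primitive endoderm markers summed to 975 and 1372 CPM in KO libraries, against 465 and 562 CPM in WT libraries, and 8 of 10 were called higher. In bulk samples such as these, fewer cells of a type and less RNA per cell cannot be told apart. The labels do not state that a genotype's libraries are separate cultures, so each p-value below is set by how far these libraries spread, which may be technical.

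The 211 genes spanned 501.8 to 4435 kb, with a median of 729 kb. More than 1000 kb was spanned by 52 of them, and more than 2000 kb by 6. Exons of the GENCODE M21 annotation made up a median of 1.25% of the span, so almost all of each gene is intron. The deposited counts treat the whole span as the gene. Every one of the 457 protein-coding genes that lie inside another gene on the same strand had 0 counts in all libraries, including 243 whose exons touch no exon of a neighbour on that strand. Counting over whole gene spans by strand, with shared stretches given to neither gene, produces this pattern. The values of very long genes below are therefore mostly intronic, newly made RNA. Of the 211, 206 passed the filter on low counts. Schip1, Gm37388, Gm37013 and Gm42416 had 0 counts in all libraries, and Gm21949 was too low to test. Of the tested genes, 7 shared over 10% of their span with another gene on their strand, Foxp1, Gm20388 and Fgfr2 among them, so that part of their transcription is not counted. Of these 7, 1 is among the 35 members called different between genotypes below.

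Transcription per length varied widely among the 206 tested genes. Their WT level ran from 0.836 to 1996 CPM, with a median of 24.6 CPM, and the 10 genes with most counts held 44.0% of all WT counts on the class. Per kb of span, the median was 0.0291 CPM in WT, against 0.928 CPM per kb for the other protein-coding genes of the same chromosomes. Very long genes were thus sparsely transcribed per kb in WT ES cells. Their level over the whole gene was not low, at a median of 25.3 CPM over the 4 libraries, beside 21.5 CPM for the other protein-coding genes. Of all 211 members, tested or not, the WT mean was below 10 CPM for 73 and 100 CPM or more for 53. The highest levels per kb belonged to Lpp, a LIM domain protein of focal adhesions, at 3.13 CPM per kb in KO and 2.88 CPM per kb in WT. Exoc4, a subunit of the exocyst that tethers secretory vesicles, followed with 2.36 CPM per kb in KO and 2.75 CPM per kb in WT. Lpp overlapped between genotypes and Exoc4 was lower in both KO libraries, and neither was called, with log2 fold changes of 0.12 ± 0.18 and -0.22 ± 0.15 (SE). Ptprg, Dock1, Ptprk, Pard3, Tenm4, Vps13b, Etl4 and Foxp1 completed the 10 highest. Of these 10, Tenm4 alone was called different between genotypes.

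The 5 longest genes were not called. Gm20388, a gene model of 4435 kb, had 150.3 and 148 CPM in KO libraries, against 162 and 168 CPM in WT libraries, or -0.15 ± 0.09 on the log2 scale. The fibroblast growth factor receptor gene Fgfr2 is listed with a span of 2961 kb and differed by -0.08 ± 0.11. Its nearest RefSeq start lies 2856542 bp from the deposited 5' end, so its rank and level per kb depend on the listed span. The listed spans of Gm20388 and Fgfr2 also overlap 38 and 14 other protein-coding genes on the same strand. Ptprd, a receptor tyrosine phosphatase, had 27.6 and 28.4 CPM in KO libraries, against 24.7 and 24.3 CPM in WT libraries. Both KO libraries were higher, by a log2 fold change of 0.19 ± 0.11 that did not pass the test (edgeR, adjusted p = 0.345). The log2 fold change of Cntnap2, an adhesion protein of the neurexin superfamily, was 0.19 ± 0.14, and that of Lsamp, an IgLON adhesion protein, was -0.11 ± 0.21.

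Between genotypes, very long genes changed in both directions. At an adjusted p under 0.05 in edgeR's quasi-likelihood test across all 16789 tested genes, 18 were higher and 17 were lower in KO. These 35 calls are 17% of the 206 tested members, beside 8.07% of all tested genes and 6.9% of the other protein-coding genes on the same chromosomes. By direction, 8.74% of the members were higher and 8.25% lower, beside 4.05% and 4.02% of all genes and 3.72% and 3.18% of the other protein-coding genes. At least a 2-fold change was seen for 10 of the 35, 6 higher and 4 lower. Both KO libraries stood above both WT libraries for 47 members (background 26.7% of all tested genes) and below them for 60 (background 26.0%), and 99 overlapped. The median log2 fold change of the class was -0.03, with quartiles of -0.25 and 0.20, beside 0.02 for the other protein-coding genes.

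The number of calls depended on single libraries. Without WT replicate 2, 11 members were called higher and 12 lower, at 4.78% of all genes. Without KO replicate 2, 34 were called higher and 28 lower, at 16.4% of all genes, and without KO replicate 1 the count of lower calls was 26. All 35 members kept their direction when KO was compared with WT within the pair of libraries with fewer counts and within the pair with more. This had to be so and is no support for the calls, since their KO libraries all lay on one side of both WT libraries. When the fit also held a term for library depth (1 shallower and 1 deeper library per genotype), 41 members were called higher and 45 lower, at 25.7% of all genes, and 51 of them were not called without it. Among the genes described below as not called, Ctnnd2, Cdh13, Fat3, Robo1, Robo2, Nrg1, Ryr2, Grm5, Grm7, Grm8, Dlgap2, Nav3, Sox6, Foxp1, Csmd1, Fhit, Immp2l and Lrp1b passed with that term, as did Exoc4 and Edil3. With the library size set by the S. pombe spike-in, 0 members and 0.101% of all genes were called (4 members at an unadjusted p under 0.05; scaled on mouse genes, DESeq2 called 34 members and limma voom 35), and the median of all genes moved to -0.23 and that of the members to -0.26. Mouse counts per spike-in count were 2.707 and 4.855 in KO libraries, against 3.252 and 5.604 in WT libraries, and so differed widely within each genotype. Under spike-in scaling the log2 fold change of Cdk14 was 0.947 and that of Tmem132d -1.502, beside 1.15 and -1.30 with TMM. These changes thus remained in size while their calls were lost. The cause of that loss was not tested. The directions below are relative to the bulk of mouse genes. In the authors' deposited table, 0 of 207 members have an adjusted p under 0.05, beside 8 of 29514 genes (0.0271%), and the lowest adjusted p of a member there is 0.999. The size factors of that table were 1.21 and 0.940 in KO libraries, against 1.03 and 0.861 in WT libraries. They follow the spike-in counts, which were 4.84 and 3.79 M in KO libraries, against 4.16 and 3.46 M in WT libraries. The deposited result is thus not separate from the spike-in setting.

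**Figure D1:**
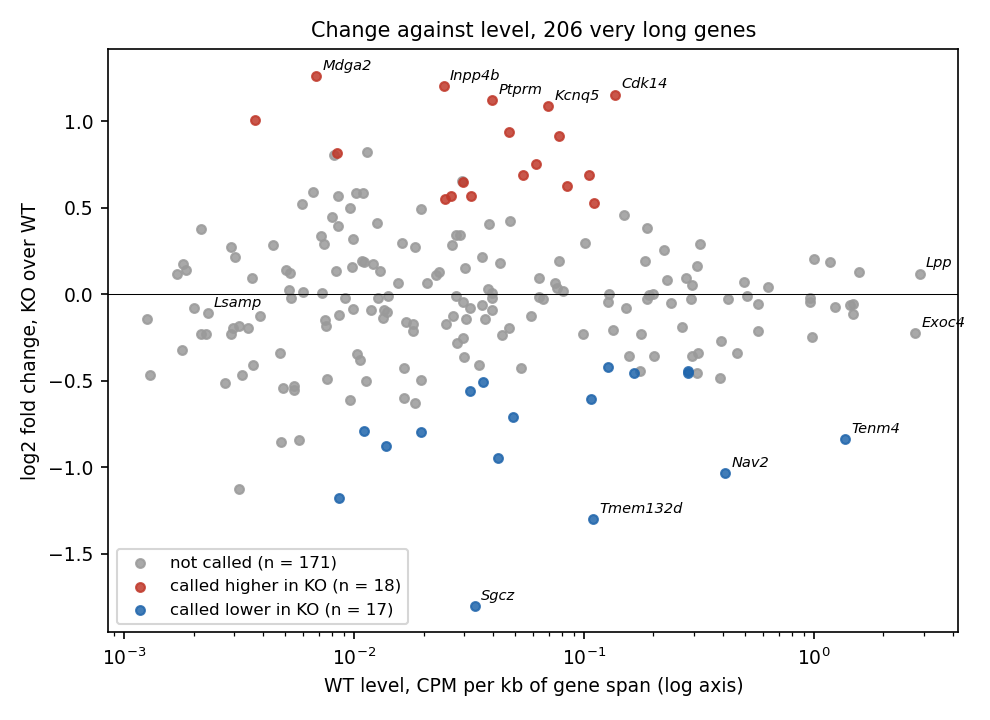
Each point is 1 of the 206 tested very long genes, with its WT level in CPM per kb of gene span on a log axis and its log2 fold change of KO over WT. Red points are the 18 members called higher in KO, blue points the 17 called lower and grey points those not called. Calls lie across the range of levels, and the most transcribed genes, Lpp and Exoc4, lie near 0.

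Cdk14, Kcnq5, Inpp4b, Adgrl3 and Nckap5 had the lowest p-values among the members called higher. Cdk14, a cyclin-dependent kinase that pairs with cyclin Y at the plasma membrane and promotes Wnt signalling, had 183 and 190.1 CPM in KO libraries, against 89.2 and 78.7 CPM in WT libraries. The libraries of the genotypes stood far apart, at a log2 fold change of 1.15 ± 0.10 (SE; edgeR, adjusted p = 0.000959). Kcnq5, a voltage-gated potassium channel of the M-current family, had 80.9 and 86.3 CPM in KO libraries, against 40.5 and 38.3 CPM in WT libraries. Its log2 fold change was 1.09 ± 0.09 (edgeR, adjusted p = 0.00101). Inpp4b, a phosphatase that removes a phosphate from phosphoinositides of the PI3K pathway, had 45.7 and 42.6 CPM in KO libraries, against 20.7 and 17.7 CPM in WT libraries. It was higher by 1.20 ± 0.12 on the log2 scale (edgeR, adjusted p = 0.00146).

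Adgrl3, an adhesion G protein-coupled receptor also called latrophilin, had 118 and 117 CPM in KO libraries, against 66.9 and 58.1 CPM in WT libraries. The KO libraries lay nearly on each other and above both WT libraries, at a log2 fold change of 0.91 ± 0.10 (edgeR, adjusted p = 0.00173). Nckap5 had 81.3 and 84.1 CPM in KO libraries, against 47.3 and 39.4 CPM in WT libraries (0.94 ± 0.11, edgeR, adjusted p = 0.00242). Mdga2, a membrane-anchored immunoglobulin protein that binds neuroligins, showed the largest rise of the class among called members, at 1.26 ± 0.27 (edgeR, adjusted p = 0.0251). Its level was low, with 15.6 and 9.19 CPM in KO libraries, against 5.78 and 4.54 CPM in WT libraries, and the KO pair spread more widely than the WT pair.

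Among the members called lower, Sgcz fell most. Sgcz encodes zeta-sarcoglycan, a membrane protein of the dystrophin-linked complex, and had 7.48 and 14 CPM in KO libraries, against 32.3 and 43.7 CPM in WT libraries. The genotypes were well apart even though each pair differed within itself, at a log2 fold change of -1.80 ± 0.25 (SE; edgeR, adjusted p = 0.00485). Tmem132d, a single-pass membrane protein, had 27.4 and 30.0 CPM in KO libraries, against 75.2 and 66.7 CPM in WT libraries, a change of -1.30 ± 0.11 (edgeR, adjusted p = 0.000959). Nav2, a neuron navigator protein that answers to retinoic acid and binds microtubules, had 134 and 147 CPM in KO libraries, against 293 and 284 CPM in WT libraries. Both pairs were tight, and the change was -1.04 ± 0.10 (edgeR, adjusted p = 0.00113). Tenm4, a teneurin adhesion receptor, was the most transcribed gene among the 35. Its level was 511 and 620.0 CPM in KO libraries, against 984 and 1042 CPM in WT libraries, a change of -0.84 ± 0.13 (edgeR, adjusted p = 0.00768).

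**Figure D2:**
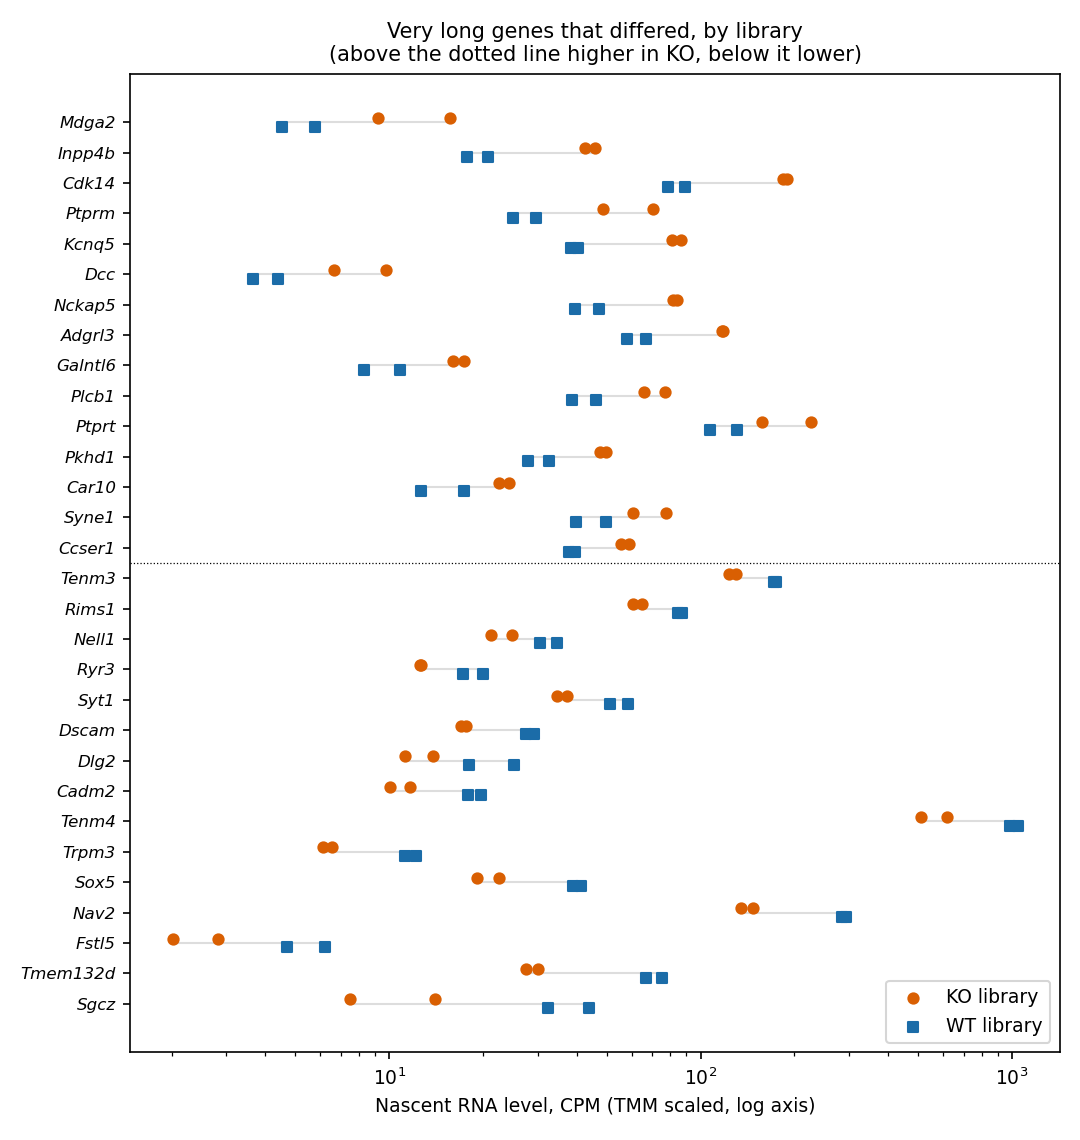
Nascent RNA level in CPM (log axis) of the 30 very long genes with the largest called changes, 15 in each direction, with KO libraries as circles and WT libraries as squares. In each row the 2 KO libraries lie on one side of the 2 WT libraries, and the levels run from about those of Fstl5 (2.02 to 6.22 CPM) to those of Tenm4 (511 to 1042 CPM).

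To show what the starts of such genes look like, the RefSeq promoter windows (GRCm38.p6, 250 bases before to 50 after the annotated start) are given for 4 of the called members. They are the 2 with the lowest p-values in each direction among called members whose RefSeq start lies within 100 bp of the deposited gene end. Capitals mark each CG dinucleotide, the site of DNA methylation. Kcnq5 (chr1:21961893-21962192, minus strand) and Inpp4b (chr8:81342312-81342611, plus strand) were higher in KO, and Tenm4 (chr7:96170994-96171293, plus strand) and Dscam (chr16:97170686-97170985, minus strand) were lower.
Kcnq5: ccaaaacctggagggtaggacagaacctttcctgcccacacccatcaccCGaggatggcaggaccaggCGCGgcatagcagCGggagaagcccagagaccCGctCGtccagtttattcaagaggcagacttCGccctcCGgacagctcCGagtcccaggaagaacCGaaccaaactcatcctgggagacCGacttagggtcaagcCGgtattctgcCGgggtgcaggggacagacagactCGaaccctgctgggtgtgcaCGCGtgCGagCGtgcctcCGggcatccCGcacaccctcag
Inpp4b: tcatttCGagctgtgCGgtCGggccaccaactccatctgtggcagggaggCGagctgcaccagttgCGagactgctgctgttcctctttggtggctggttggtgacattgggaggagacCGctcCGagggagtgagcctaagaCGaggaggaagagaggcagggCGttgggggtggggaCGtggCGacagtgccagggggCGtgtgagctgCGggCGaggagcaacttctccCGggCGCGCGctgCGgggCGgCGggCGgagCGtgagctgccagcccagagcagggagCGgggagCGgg
Tenm4: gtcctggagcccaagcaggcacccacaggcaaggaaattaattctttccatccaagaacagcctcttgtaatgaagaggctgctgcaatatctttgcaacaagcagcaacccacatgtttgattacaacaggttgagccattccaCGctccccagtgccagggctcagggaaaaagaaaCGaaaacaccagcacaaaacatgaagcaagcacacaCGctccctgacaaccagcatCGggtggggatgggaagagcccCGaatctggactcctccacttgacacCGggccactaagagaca
Dscam: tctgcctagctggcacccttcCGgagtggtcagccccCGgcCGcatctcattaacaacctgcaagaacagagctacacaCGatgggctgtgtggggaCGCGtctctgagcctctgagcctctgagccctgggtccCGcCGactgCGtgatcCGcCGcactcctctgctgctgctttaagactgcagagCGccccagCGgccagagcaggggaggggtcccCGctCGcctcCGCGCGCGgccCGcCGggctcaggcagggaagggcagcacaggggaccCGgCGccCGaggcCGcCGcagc
Kcnq5 held 20 CG dinucleotides and Inpp4b 25, at 62.7% and 68.3% G and C. Tenm4 held 6, at 52.0% G and C, and Dscam 26, at 70.0%. Of the windows of 15258 other protein-coding genes of the same chromosomes, 95.1% held at least 1 CG, with a median of 15. The motif TATAAA, searched on both strands, is in none of the 4 windows and in 13.0% of those other windows. Windows were found for 159 of the 211 members, and the class is not compared with other genes here.

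Adhesion receptors were called in both directions. The counts of this and the following role lists are small and were not tested. They stand beside 8.74% of all tested members called higher and 8.25% lower, and 4.05% and 4.02% of all tested genes. Of 22 members of the IgLON, contactin, neurexin and teneurin families, 1 was higher, 4 were lower and 17 were not called, with a median log2 fold change of -0.17. Beside Tenm4, the called ones included Tenm3, with 124 and 129.9 CPM in KO libraries, against 175 and 172 CPM in WT libraries (-0.45 ± 0.09, edgeR, adjusted p = 0.0170). Tenm2, the other teneurin of the class, was low and overlapped between genotypes, at 5.48 and 3.98 CPM in KO libraries, against 4.76 and 4.07 CPM in WT libraries. Dscam, a cell adhesion molecule by which neurites of one cell avoid each other, had 17.03 and 17.6 CPM in KO libraries, against 27.4 and 29.2 CPM in WT libraries (-0.71 ± 0.12, edgeR, adjusted p = 0.00971). Cadm2, a nectin-like synaptic adhesion molecule, had 11.6 and 10.1 CPM in KO libraries, against 19.8 and 17.9 CPM in WT libraries (-0.80 ± 0.15, edgeR, adjusted p = 0.0143). Tenm3 did not pass when WT replicate 1 (-0.45, adjusted p = 0.0768) or WT replicate 2 (-0.46, adjusted p = 0.105) was left out.

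Of the 8 cadherins, catenins and protocadherins, 0 were called by edgeR, 2 had an unadjusted p under 0.05, and DESeq2 and limma voom also called 0, while the term for library depth gave 3 calls. Their median was -0.17. Ctnnd2, the delta-catenin of neuronal junctions, came closest, with 100.05 and 109.6 CPM in KO libraries, against 139.5 and 129 CPM in WT libraries (-0.36 ± 0.09, edgeR, adjusted p = 0.0534). It passed without the low-count filter (adjusted p = 0.0403), among genes with a mean of at least 2 CPM (0.0410), when KO replicate 2 was left out (0.00449) and with the term for library depth (1.1e-05). Cdh13, a cadherin held in the membrane by a lipid anchor, was at -0.21 ± 0.10. Fat3, a giant cadherin, had the highest value of the list, 0.49 ± 0.18.

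Axon guidance genes held members of both directions. Of 7, 1 was higher, 1 was lower and 5 were not called, and the median was 0.41. Dcc, the netrin receptor, had 9.78 and 6.67 CPM in KO libraries, against 3.66 and 4.38 CPM in WT libraries (1.01 ± 0.24, edgeR, adjusted p = 0.0389). Slit3, a secreted ligand of Robo receptors, was tight in both pairs, with 121 and 123 CPM in KO libraries, against 168 and 165 CPM in WT libraries (-0.44 ± 0.09, edgeR, adjusted p = 0.0171). Of its receptors, Robo1 was at -0.22 ± 0.10 and Robo2 at 0.58 ± 0.18, and neither passed the test (edgeR, adjusted p = 0.260 and 0.0863). Dcc did not pass when KO replicate 1 was left out (0.72, adjusted p = 0.0554), nor Slit3 when WT replicate 1 (-0.44, adjusted p = 0.0836) or WT replicate 2 was (-0.45, adjusted p = 0.111).

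Receptor tyrosine phosphatases, receptor tyrosine kinases and their ligands counted 11 members, with 2 higher, 0 lower and a median of 0.13. DESeq2 and limma voom also called 2, and 2 had an unadjusted p under 0.05. Both were phosphatases with a MAM domain, whose outer parts bind the same protein on a neighbouring cell. Ptprm had 48.7 and 70.2 CPM in KO libraries, against 25.02 and 29.6 CPM in WT libraries, at 1.12 ± 0.17 (edgeR, adjusted p = 0.00682). Ptprt had 226 and 157 CPM in KO libraries, against 131 and 107 CPM in WT libraries, at 0.69 ± 0.17 (edgeR, adjusted p = 0.0398). Ptprk, also of that type and more abundant than both, had 686 and 734 CPM in KO libraries, against 735 and 804 CPM in WT libraries. The genotypes barely separated, and Ptprk was not called (-0.12 ± 0.12). Ptprg, Ptprn2 and Ptprd were at 0.13, -0.20 and 0.19, and the neuregulins Nrg1 and Nrg3, ligands of ErbB receptors, at 0.46 and 0.29. Ptprt was at 0.41 without KO replicate 1, still called, but did not pass when WT replicate 2 was left out (0.55, adjusted p = 0.0879).

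Ion channels and neurotransmitter receptors numbered 22, of which 2 were higher, 3 were lower and 17 were not called, at a median of -0.04. The list also holds membrane proteins that are not known to be channels, Nkain2 and Tmem132d among those called. Beside Kcnq5, the higher one was Nkain2, a protein that interacts with the sodium pump, with 46.3 and 41.1 CPM in KO libraries, against 30.6 and 29.0 CPM in WT libraries (0.55 ± 0.11, edgeR, adjusted p = 0.0183). Its paralogue Nkain3 was at 0.03 ± 0.11. Beside Tmem132d, Trpm3, a heat-activated cation channel, was lower, with 6.15 and 6.55 CPM in KO libraries, against 12.2 and 11.2 CPM in WT libraries (-0.88 ± 0.17, edgeR, adjusted p = 0.0160). Ryr3, a calcium release channel of the endoplasmic reticulum, had 12.7 and 12.5 CPM in KO libraries, against 17.2 and 19.9 CPM in WT libraries (-0.56 ± 0.14, edgeR, adjusted p = 0.0452). The related Ryr2, the most transcribed gene of the list, varied more between libraries, with 124 and 183 CPM in KO libraries, against 193 and 237 CPM in WT libraries. It did not pass the test at -0.48 ± 0.17 (edgeR, adjusted p = 0.139). It passed when KO replicate 2 (-0.79, adjusted p = 4.0e-07) or WT replicate 1 (-0.63, 0.00929) was left out, without the low-count filter (0.00132) and with the term for library depth (5.2e-11). The 3 metabotropic glutamate receptors of the class pointed apart without passing the test, Grm5 at 0.80 ± 0.28, Grm8 at 0.34 ± 0.24 and Grm7 at -0.86 ± 0.25. Without WT replicate 2, the calls of Nkain2 (0.51, adjusted p = 0.0758) and Ryr3 (-0.45, adjusted p = 0.329) were lost, and DESeq2 did not call Ryr3 (adjusted p = 0.113).

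Synaptic scaffold and release proteins had 13 members, with 0 higher, 3 lower and a median of -0.22. DESeq2 and limma voom also called 3, and 6 had an unadjusted p under 0.05. Syt1, the calcium sensor of synaptic vesicle release, had 34.7 and 37.3 CPM in KO libraries, against 58.6 and 51.2 CPM in WT libraries (-0.61 ± 0.11, edgeR, adjusted p = 0.0124). Rims1, which organises the release site of vesicles, had 64.7 and 60.6 CPM in KO libraries, against 84.6 and 87.3 CPM in WT libraries (-0.46 ± 0.09, edgeR, adjusted p = 0.0177). Dlg2, a scaffold of the postsynaptic density that spans 1973 kb, had 13.8 and 11.2 CPM in KO libraries, against 25.2 and 18.1 CPM in WT libraries (-0.79 ± 0.19, edgeR, adjusted p = 0.0369). Their partners Dlgap1 and Dlgap2 were at 0.01 ± 0.14 and 0.34 ± 0.13, and the widely used scaffold Magi1 at -0.02 ± 0.11. The neuron marker sums given above overlapped between genotypes, while neural progenitor markers summed to 58.8 and 52.1 CPM in KO libraries, against 43.7 and 37.3 CPM in WT libraries, with 1 of 3 tested higher, 1 lower and Sox1 listed at 0. Their part in these results was not tested. Leaving out WT replicate 2 ended the call of Rims1 (-0.43, adjusted p = 0.106), and leaving out WT replicate 1 that of Dlg2 (-0.54, adjusted p = 0.106).

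Kinases, phosphodiesterases and G protein signalling genes had 20 members, with 2 higher, 1 lower and a median of -0.05. Inpp4b, a lipid phosphatase, and Nav2, a microtubule-binding protein, are described above. Plcb1, a phospholipase C that acts downstream of G proteins, had 77.0 and 66.0 CPM in KO libraries, against 46.2 and 38.6 CPM in WT libraries (0.75 ± 0.12, edgeR, adjusted p = 0.00824). Nav3, the relative of Nav2, was at -0.41 ± 0.12 and was not called. The most transcribed genes of the list stayed close to 0, with Dock1, an exchange factor for Rac, at -0.06 ± 0.13 and Pard3, a cell polarity scaffold, at -0.07 ± 0.14.

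Of 19 regulators of transcription, chromatin and RNA, 1 was higher and 1 was lower, and the median was 0.07. Celf2, an RNA-binding protein that controls splicing, had 153 and 154 CPM in KO libraries, against 106 and 107 CPM in WT libraries, with both pairs nearly identical (0.53 ± 0.09, edgeR, adjusted p = 0.00862). Sox5, a transcription factor of the SoxD group, had 19.1 and 22.5 CPM in KO libraries, against 38.9 and 41.4 CPM in WT libraries (-0.94 ± 0.12, edgeR, adjusted p = 0.00336). Sox6, of the same group, was at -0.43 ± 0.16 and did not pass the test (edgeR, adjusted p = 0.145). Foxp1, a forkhead factor with a role in pluripotent cells, was at 0.20 ± 0.11. Leaving out WT replicate 2 ended the call of Celf2 (0.53, adjusted p = 0.0590).

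Extracellular, matrix and low-density lipoprotein receptor-like proteins had 17 members, with 1 higher, 3 lower and a median of -0.05. Beside Sgcz, Adamtsl1, a matrix protein related to ADAMTS proteases, had 87.2 and 85.4 CPM in KO libraries, against 109 and 122 CPM in WT libraries (-0.42 ± 0.09, edgeR, adjusted p = 0.0272). Nell1, a secreted protein that promotes bone formation, had 24.8 and 21.2 CPM in KO libraries, against 30.4 and 34.6 CPM in WT libraries (-0.51 ± 0.13, edgeR, adjusted p = 0.0460). Galntl6, of the family that starts O-linked sugar chains, had 16.1 and 17.4 CPM in KO libraries, against 10.8 and 8.30 CPM in WT libraries (0.82 ± 0.17, edgeR, adjusted p = 0.0215). The complement-domain proteins Csmd1, Csmd2 and Csmd3 were at 0.52 ± 0.19, 0.21 ± 0.14 and -0.12 ± 0.27, and Sgcd, another sarcoglycan, at -0.17 ± 0.19, none of them called. Without WT replicate 2 the calls of Adamtsl1 (-0.34, adjusted p = 0.285), Nell1 (-0.41, adjusted p = 0.264) and Galntl6 (0.63, adjusted p = 0.108) were lost, and Nell1 was also lost without KO replicate 2 (-0.39, adjusted p = 0.0680) and with DESeq2 (adjusted p = 0.0820).

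Of the class, 22 genes lie at sites known as common fragile sites in humans or mice, and of these 0 were higher and 1 was lower, namely Dlg2. Their median was -0.04. DESeq2 and limma voom also called 1, 4 had an unadjusted p under 0.05, and the term for library depth gave 8 calls. Fhit, a tumour suppressor that spans 1612 kb, had 18.6 and 25.9 CPM in KO libraries, against 31.6 and 31.4 CPM in WT libraries. Both KO libraries were lower, but the change of -0.50 ± 0.16 did not pass the test (edgeR, adjusted p = 0.0927). It passed without the low-count filter (adjusted p = 0.0115), when KO replicate 2 was left out (-0.76, 0.00021) and with the term for library depth (3.5e-05). Wwox, an oxidoreductase at another fragile site, overlapped between genotypes, with 153 and 194 CPM in KO libraries, against 171 and 178 CPM in WT libraries. Macrod2 was at -0.21 ± 0.11, Immp2l at -0.23 ± 0.18, Park2, the ubiquitin ligase parkin, at 0.07 ± 0.13 and Lrp1b at 0.33 ± 0.23.

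**Figure D3:**
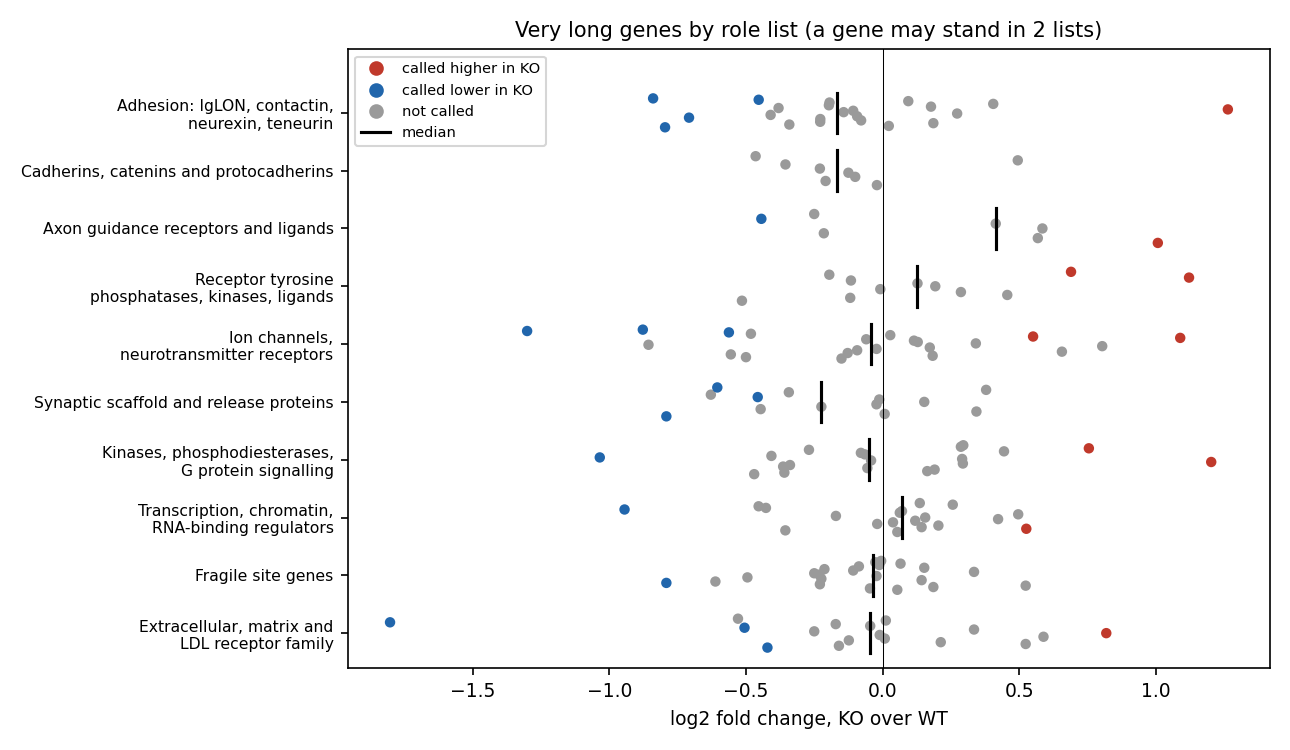
Log2 fold change of KO over WT of each tested very long gene, by role list, with a black bar at each list's median. Red points were called higher in KO, blue points lower, and a gene in 2 lists appears in both rows; adhesion genes have 1 red and 4 blue points, and fragile site genes 1 blue point among 22.

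A further 58 tested members stood in no role list, of which 8 were higher and 1 was lower in KO. Cdk14, Adgrl3 and Nckap5 are described above. Pkhd1, whose product fibrocystin is altered in recessive polycystic kidney disease in humans, had 49.8 and 47.7 CPM in KO libraries, against 32.7 and 27.9 CPM in WT libraries (0.69 ± 0.11, edgeR, adjusted p = 0.00882). Ccser1 had 55.5 and 58.9 CPM in KO libraries, against 39.5 and 37.7 CPM in WT libraries (0.57 ± 0.10, edgeR, adjusted p = 0.0100). Syne1, a nesprin that links the nucleus to the cytoskeleton, had 77.2 and 60.7 CPM in KO libraries, against 49.6 and 39.8 CPM in WT libraries (0.63 ± 0.14, edgeR, adjusted p = 0.0322). For each of these genes, the KO libraries were above both WT libraries. Car10, a carbonic anhydrase-like protein without enzyme activity, had 24.3 and 22.5 CPM in KO libraries, against 17.3 and 12.7 CPM in WT libraries (0.65 ± 0.16, edgeR, adjusted p = 0.0452). Slc9a9, a sodium and proton exchanger of endosomes, had 23.6 and 20.2 CPM in KO libraries, against 15.9 and 13.6 CPM in WT libraries (0.57 ± 0.15, edgeR, adjusted p = 0.0482). Fstl5, a follistatin-like protein, was the 1 called lower, with 2.81 and 2.02 CPM in KO libraries, against 6.22 and 4.70 CPM in WT libraries (-1.18 ± 0.27, edgeR, adjusted p = 0.0331). Without WT replicate 2, Syne1 (0.47, adjusted p = 0.0971), Car10 (0.43, adjusted p = 0.281) and Slc9a9 (0.46, adjusted p = 0.259) were not called, and neither were Slc9a9 without KO replicate 1 (0.46, adjusted p = 0.0639) and Fstl5 without WT replicate 1 (-0.98, adjusted p = 0.0846). Car10 also did not pass among genes with a mean of at least 2 CPM (adjusted p = 0.0564).

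Within the class, length did not order the changes. The medians by span were -0.01 for 500 to 600 kb, -0.09 for 600 to 800 kb, -0.05 for 800 to 1000 kb, 0.09 for 1000 to 1500 kb and -0.17 for 1500 to 5000 kb, over 70, 49, 35, 37 and 15 tested genes. Calls split 5 higher to 5 lower in each of the bands from 500 to 800 kb, 3 to 5 from 800 to 1000 kb, 5 to 1 from 1000 to 1500 kb and 0 to 1 above. Across the 206 genes, which share the same 4 libraries, Spearman's rho between span and log2 fold change was -0.0062, and between WT level per kb and log2 fold change -0.0174. Level per kb itself declined with span, at a rho of -0.27. At the 500 kb limit, the shortest members were Edil3 at 501.8 kb (-0.60), Dock1 at 503.0 kb (-0.06) and Car10 at 503.7 kb (0.65). The longest genes outside it were Pde1c at 499.3 kb (-0.05), Dnm3 at 495.6 kb (-0.56) and Cacna1e at 493.8 kb (-0.71).

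Set beside shorter protein-coding genes, the class continued a gradient in how often genes were called, while its median hardly differed. The share called was 4.10% for genes under 10 kb, 5.24% for 10 to 50 kb, 8.75% for 50 to 100 kb, 13.9% for 100 to 250 kb, 16.2% for 250 to 500 kb and 17% over 500 kb. The medians were 0.02, 0.02, 0.01, -0.02, -0.02 and -0.03 in the same order. The median level moved with the share called over the shorter classes, at 7.93, 22.8, 59.2, 64.3, 32.3 and 25.3 CPM, and its part in the result was not tested. No test of the gradient was made, since genes are not replicates.

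**Figure D4:**
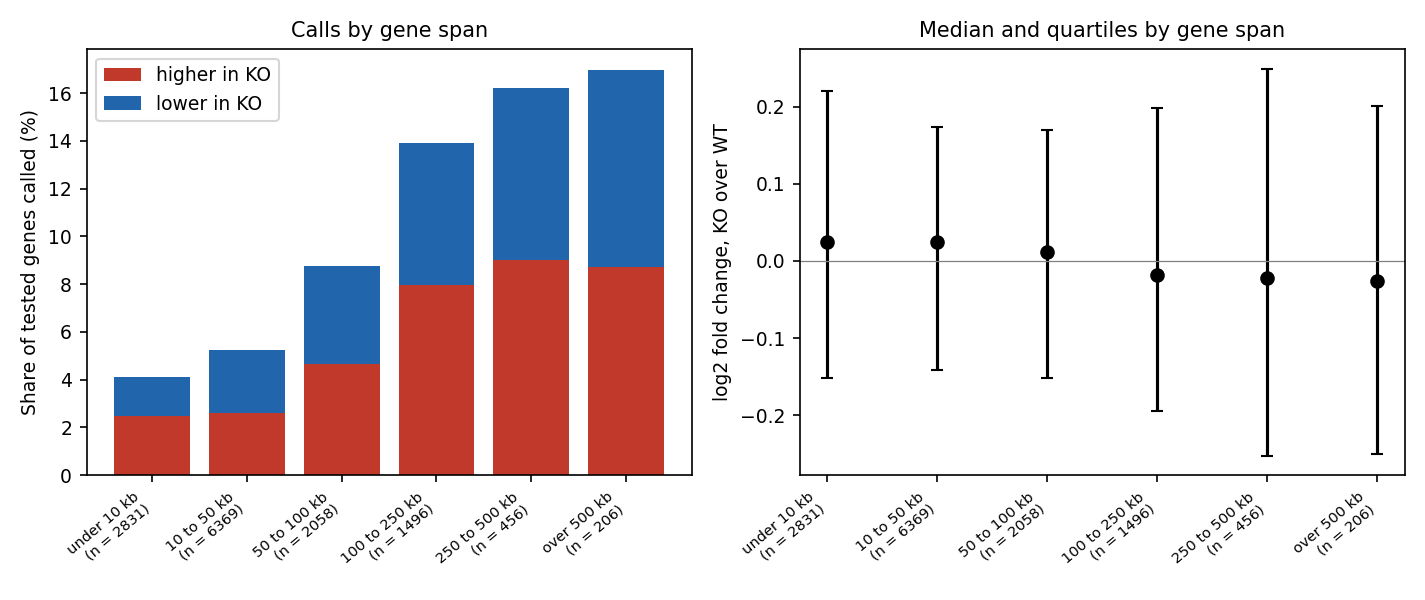
Left, share of tested protein-coding genes called higher (red) and lower (blue) in KO by gene span, from under 10 kb to over 500 kb. Right, median log2 fold change (point) and quartiles (bars) of the same classes; the share called reaches 17% over 500 kb while all 6 medians lie between -0.03 and 0.02.

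Genes of like count level were then compared, in 5 classes of the mean over the 4 libraries that were chosen after the data were seen. Below 10 CPM, 4 of 64 very long genes were called (6.25%), beside 5.32% of 4734 other protein-coding genes. Between 10 and 30 CPM it was 9 of 53 (17%), beside 9.08% of 2774. Between 30 and 100 CPM, 14 of 35 were called (40%), beside 8.43% of 3168, and between 100 and 300 CPM, 7 of 34 (20.6%), beside 5.95% of 1950. At 300 CPM and above, 1 of 20 was called (5.0%), namely Tenm4, beside 4.28% of 584. In the middle classes the typical change was also larger, with a median absolute log2 fold change of 0.29 for the very long genes and 0.12 for the others between 30 and 100 CPM. Only below 10 CPM was it smaller, at 0.23 for the very long genes and 0.32 for the others. The differences between shares are descriptions and were not tested.

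**Figure D5:**
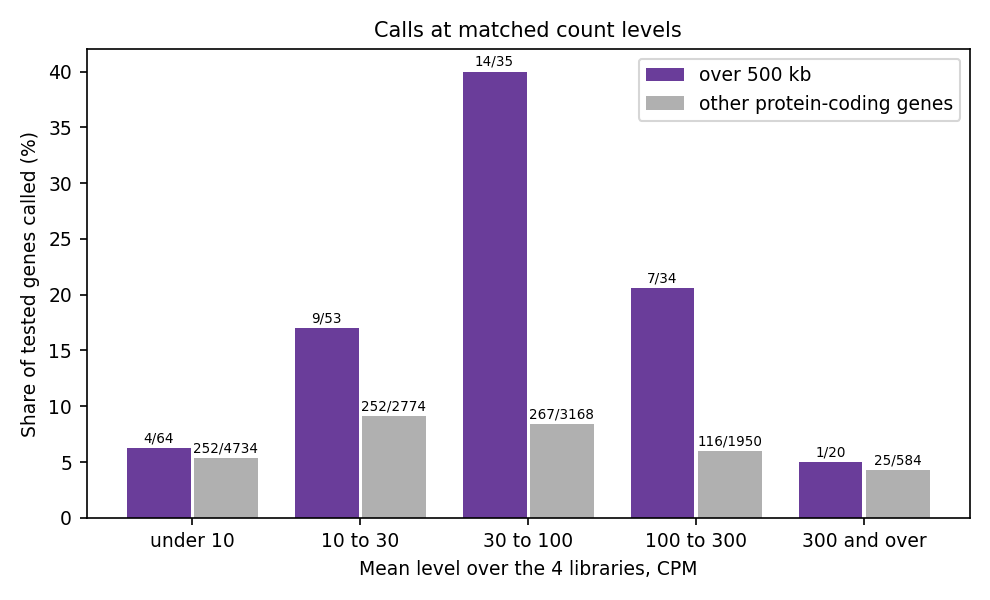
Share of tested genes called, for very long genes (purple) and other protein-coding genes of the same chromosomes (grey), by mean level over the 4 libraries; numbers above the bars are genes called and tested. The bars are furthest apart between 30 and 100 CPM, at 40% for very long genes and 8.43% for the others.

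The share of transcription taken by the class as a whole was compared next. Of counts on protein-coding genes of the same chromosomes, 2.49% and 2.59% fell on very long genes in KO libraries, against 2.61% and 2.63% in WT libraries. The means were 2.54% ± 0.0737 in KO and 2.62% ± 0.0176 in WT (SD, n = 2 each), a difference of -0.0788 percentage points. The exact two-sided permutation test gave p = 0.33, the smallest that 2 against 2 libraries allow. The genes over 1000 kb differed the other way, by 0.0172 percentage points (exact permutation test, p = 0.33).

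The factors that carry polymerase through long genes were examined as a list. Of 48 genes for elongation factors, CDK9 and CDK12 complexes, splicing-linked factors and topoisomerases, 47 were tested, 1 was higher and 1 was lower (4.26%, beside 8.07% of all genes), and the median log2 fold change was 0.02. Aff1, a scaffold of the super elongation complex, had 157 and 212 CPM in KO libraries, against 333 and 340.0 CPM in WT libraries (-0.87 ± 0.14, edgeR, adjusted p = 0.00824). Nono, an RNA-binding protein of paraspeckles encoded on the X chromosome, had 141 and 134 CPM in KO libraries, against 105 and 109.8 CPM in WT libraries (0.36 ± 0.09, edgeR, adjusted p = 0.0413). Its partner Sfpq, which is needed for transcription of long genes in mouse neurons, was at -0.04 ± 0.10, and the topoisomerase genes Top1 and Top2b were at 0.15 ± 0.11 and 0.09 ± 0.08. The count of 2 calls became 1 without WT replicate 2, 5 without KO replicate 2 and 9 with the term for library depth (25.7% of all genes).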

How the data were processed

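TT-seq libraries of 2 KO and 2 WT samples were analysed from gene tables; the genotypes come from the labels. Raw counts were deposited for 54146 genes of mouse and 7259 of S. pombe. A second deposited table, of the authors' own comparison, holds the same counts, a normalized signal (each count over its library's size factor), log2 fold changes under a beta prior and p-values. Per the submitters' processing notes, the build was mm10 and the tools were STAR 2.5.3 and HTSeq 0.6.1p1, with cutadapt 1.10, DESeq2 1.16.1 and bcl2fastq 2.20.0.422. Which annotation release, feature and strand setting were counted is not given in the sources used. Exons are from GENCODE M21.

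Genes were kept by filterByExpr (minimum count 10), which left 16789 genes. They were tested with edgeR 4.0.16 (R 4.3.3; TMM factors, quasi-likelihood test, Benjamini-Hochberg over all tested genes, adjusted p under 0.05). The SE is that of the log2 fold change, and the biological coefficient of variation was 0.0952. CPM are counts per 1e6 of the TMM-scaled library size. Alternatives used DESeq2 1.42.0, limma 3.58.1 voom, other scalings, filters and length limits, a term for library depth, and each library left out; a genotype with a single library is then assumed to vary like the other pair. On simulated counts of 16789 genes for KO over WT, the fit called 22.4%, 71.6% and 100% of genes given log2 changes of 0.5, 1 and 2, and 0.0552% of unchanged genes. The simulation gave every gene the same biological coefficient of variation and no effect of library depth. These rates need not hold for the real counts. Library pairs differed by a chi-square per degree of freedom of 10.3 in KO and 6.04 in WT, so no library was a duplicate. Correlations and shares by class are descriptions.

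The genes of the class and the role lists were chosen with earlier results of these data known. Named are the 15 largest called changes per direction in which KO and WT libraries did not overlap, with a mean of at least 2 CPM, the 10 members highest in WT per kb, the 5 longest, up to 2 of the most abundant of each role list, and 3 genes on either side of 500 kb. The 5 other called members, the paralogues and the further members of lists were named after their values were seen.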

Additional observations from a re-analysis of the deposited data

How the results depend on the processing

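Under DESeq2, limma voom and DESeq2's size factors in edgeR, 34 to 36 members were called. Of the 35 called with TMM and the low-count filter, 32 remained with DESeq2. Among genes with a mean of at least 2 CPM, 33 remained. Spike-in scaling called 0 higher and 0 lower and 0 elongation genes, and moved the members' median to -0.26; beside the other protein-coding genes it was -0.05, against -0.04 with TMM. Without the low-count filter 31 were higher and 29 lower, and with a term for library depth 41 and 45, and 9 elongation genes (25.7% of all genes called). A limit of 400 kb gave 30 higher and 25 lower, and 1000 kb gave 5 higher and 2 lower. The share of counts on genes over 1000 kb was higher in KO by 0.0172 percentage points. Leaving out each library in turn gave 11 to 34 higher, 12 to 28 lower and 1 to 5 elongation genes. The median of the members then ran from -0.06 to 0.01, so its sign was not stable, and the share difference from -0.131 to -0.0266 percentage points. Of the 35 called members, 22 remained without WT replicate 2 and 31 to 34 without another library. No called member named here reversed. The causes were not tested. No paired analysis was possible because the labels give no replicate numbers; the term for library depth groups libraries by their count totals, not by a label. With 2 libraries per genotype, changes of 0.5 on the log2 scale were mostly missed in simulated counts, and members below 10 CPM are counted thinly.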

Other observations

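A further 20 protein-coding genes over 500 kb lie on the chromosome parts that the rule leaves out, and all 20 were tested. On chromosome X, 2 of 12 were higher and 1 was lower in KO, at a median log2 fold change of 0.40. Of the 542 tested genes of chromosome X, 8.30% were called, at a median of 0.06. Il1rapl1, a synaptic adhesion receptor of the interleukin-1 receptor family, had 19.1 and 16.6 CPM in KO libraries, against 11.3 and 8.46 CPM in WT libraries (0.86 ± 0.18, edgeR, adjusted p = 0.0215). Tenm1, the teneurin that the class lacks, had 34.7 and 39.2 CPM in KO libraries, against 47.9 and 50.6 CPM in WT libraries (-0.41 ± 0.11, edgeR, adjusted p = 0.0475). Dmd, the dystrophin gene of 2257 kb, was at -0.12 ± 0.09 and was not called. On distal chromosome 14, 4 of 6 were higher, the heparan sulfate genes Gpc5, Gpc6 and Hs6st3 and the channel regulator Fgf14, at a median of 0.74. Of all 205 tested genes there, 48.3% were called higher, at a median of 0.56. On distal chromosome 17, Alk, a receptor tyrosine kinase, had 7.41 and 8.18 CPM in KO libraries, against 22.5 and 23.5 CPM in WT libraries (-1.56 ± 0.14, edgeR, adjusted p = 0.00109). Of all 94 tested genes there, 67.0% were called lower, at a median of -0.88. With these chromosome parts included, 24 genes over 500 kb were higher and 19 lower. The genes named here were chosen after their values were seen.

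By chromosome, the calls of the class on chromosome 7 were all lower, 4 of 11 tested members (Nav2, Tenm4, Dlg2 and Nell1), beside 6.0% of all tested genes of that chromosome called in either direction. Chromosome 1 held 3 members called higher and 1 called lower of 18 (9.21% of all its genes), and chromosome 2 held 3 and 1 of 14 (6.88%). On chromosome 13, 0 of 12 members were called (7.44%). These counts are descriptions and were not tested.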
